A study of Mus musculus with 24 samples.

Results

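Tal1, Lyl1, Lmo2, Ldb1 and Cbfa2t3 encode 5 proteins of one DNA-binding complex of blood-forming cells. They are described here in blood progenitors of mice in which Tal1 had been deleted, across the 8 sorted groups of the study. The 5 genes were taken by symbol from a table of 17149 mouse genes, and all 5 were in it and were tested. The question the comparison addresses is whether the paralogue Lyl1 or the partners of Tal1 were present at other levels once Tal1 was lost.

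TAL1 (also called SCL) is a basic helix-loop-helix (bHLH) protein that pairs with an E protein and binds DNA at E-boxes, short sites with the letters CANNTG. LMO2, which has LIM domains but does not bind DNA, bridges this pair to LDB1, a protein that joins to itself and so brings complexes together, and GATA factors often read a neighbouring GATAA site. LYL1 is the closest relative of TAL1 and can take its place in the complex, and the product of Cbfa2t3, known as ETO2 or MTG16, is a corepressor that is bound in the same complex. TAL1 is required to form blood stem cells in the embryo, and it is best known in adult marrow for its part in the red cell and megakaryocyte lineages.

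All cells were bone marrow cells of the LSK gate, which holds stem cells and early progenitors, from mice that carry Rag2-GFP, a reporter of the lymphoid recombination gene Rag2. Control (Ctrl) mice carried Tal1 F/F, alleles flanked by loxP sites, without a recombinase and are labelled wild type. Knockout (KO) mice carried VaviCre with Tal1F/F, so that the recombinase was driven by Vav, a promoter active across blood cells. Each genotype was sorted into CD135-negative LSK cells (titled HSC) and CD135-positive LSK cells (titled LMPP, for lymphoid-primed multipotent progenitor), and each of these into Rag2-GFP-negative and Rag2-GFP-positive cells. That made 8 groups of 3 libraries, 24 in all. The ages of the mice are not given, and neither are the exons that the recombinase removes. Only the KO mice carried the recombinase, so its presence and the loss of Tal1 cannot be told apart.

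The authors' normalised counts from RNA-seq of these cells are the values used, and library totals ran from 6906083 to 11969093. Tests were made with limma on log2(normalised count + 4.1) over the 16215 genes that were not too low to test, with Benjamini-Hochberg adjustment over those genes and a threshold of 0.05. The labels do not say that the 3 libraries of a group came from separate mice, so the p-values reflect only how far these libraries differ, which may be technical. In bulk samples, fewer cells of a type and less RNA per cell cannot be told apart. The libraries of 2 groups included one of low detection. Control HSC GFP-positive replicate 2 had 11982 genes above a normalised count of 1 and KO LMPP GFP-positive replicate 3 had 11684, against 13583 to 15957 in the other libraries. The sort labels held for Flt3, the gene of CD135, which was at 177 to 3256 in the 12 HSC libraries and at 3623 to 8621 in the 12 LMPP libraries. They held less well for 7 genes of stem cells (Mecom, Hlf, Procr, Slamf1, Meis1, Fgd5 and Ctnnal1): their summed level was 8073 to 10229 in control LMPP GFP-negative and 5842 to 9091 in control HSC GFP-negative, and in KO mice it was higher in LMPP GFP-negative (14856 to 16427) than in HSC GFP-negative (4112 to 5611). The titles HSC and LMPP are kept below for the CD135 gates.

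The relation between Tal1 and its paralogue is shown by the stretch of their coding sequences that aligns without a gap, from the reference transcripts of build GRCm38. It covers bases 553 to 718 of the Tal1 coding sequence, which has 987 bases, and bases 439 to 604 of the Lyl1 coding sequence, which has 834, and it lies over the bHLH domain. Capitals mark the 129 of 166 bases (77.7%) that are identical, and the longest identical run is 14 bases.
Tal1: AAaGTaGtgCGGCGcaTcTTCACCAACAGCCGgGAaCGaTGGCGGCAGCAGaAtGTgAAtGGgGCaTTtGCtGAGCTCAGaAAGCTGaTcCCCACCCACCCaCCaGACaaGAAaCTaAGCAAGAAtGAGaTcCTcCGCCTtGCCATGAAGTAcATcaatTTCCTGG
Lyl1: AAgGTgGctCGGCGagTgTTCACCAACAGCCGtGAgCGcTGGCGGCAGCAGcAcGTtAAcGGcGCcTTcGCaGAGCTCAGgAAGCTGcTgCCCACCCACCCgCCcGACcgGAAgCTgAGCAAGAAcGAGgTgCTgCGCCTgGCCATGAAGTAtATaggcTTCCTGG
The differences are spread over the whole stretch.

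Tal1 (ENSMUSG00000028717, GRCm38 chr4:115056426-115071755, plus strand) was lower in every KO library than in every control library of the same population. In control mice, Tal1 was at 1746, 2109 and 1523 normalised counts in HSC GFP-negative, at 667, 984 and 684 in LMPP GFP-negative, at 393, 815 and 326 in HSC GFP-positive and at 518, 396 and 575 in LMPP GFP-positive libraries, given as replicates 1, 2 and 3. The HSC GFP-negative libraries stood above all others, LMPP GFP-negative libraries stood above LMPP GFP-positive ones, and HSC GFP-positive libraries overlapped both. Between GFP-positive and GFP-negative control LMPP, the log2 difference of Tal1 was -0.64, with an interval of -2.08 to 0.81. It did not pass by limma. The libraries of these groups stood apart in the same direction for 8.23% of all genes. In KO mice, Tal1 was at 322, 518 and 253 in HSC GFP-negative, at 329, 335 and 253 in LMPP GFP-negative, at 308, 281 and 140 in HSC GFP-positive and at 62.9, 136 and 0.499 in LMPP GFP-positive libraries. Tal1 reads thus remained in 11 of the 12 KO libraries at 62.9 or more. The lowest value, 0.499, came from the KO library of low detection. The counts cover the whole gene, and the share of the remaining reads that came from exons outside the deleted part was not measured.

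Averaged over the 4 populations, Tal1 fell by 2.12 on the log2 scale (95% interval -2.85 to -1.40, limma adjusted p = 0.00222, 17th smallest p of all genes), from a mean of 895 to 245 normalised counts. In that comparison 0.469% of all genes passed, and Tal1 passed under all 34 alternatives of processing and of libraries left out. Taken alone, the populations gave log2 differences of -2.34 in HSC GFP-negative (adjusted p = 0.418), -1.02 in HSC GFP-positive (0.513), -1.32 in LMPP GFP-negative (1) and -3.82 in LMPP GFP-positive (0.0307). The shares of all genes that passed were 0.16%, 0.432%, 0.0555% and 0.0432% in that order, and Tal1 passed in the last. Without KO replicate 3, the library of low detection, its difference there was -2.35 with an adjusted p of 0.0583, and without any 1 of the 3 control libraries the adjusted p was 0.124 to 0.196. KO libraries lay below all control libraries for 6.03%, 4.95%, 5.43% and 5.25% of genes in these populations. The exact permutation test of Tal1 alone gave p = 0.1 in each population, the smallest that 3 against 3 libraries allow. Description numbers in the labels tie 4 libraries of a genotype and replicate together, and the limma fit took these libraries as separate. On the means of 3 against 3 description numbers, the exact permutation test also gave p = 0.1.

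**Figure D1:**
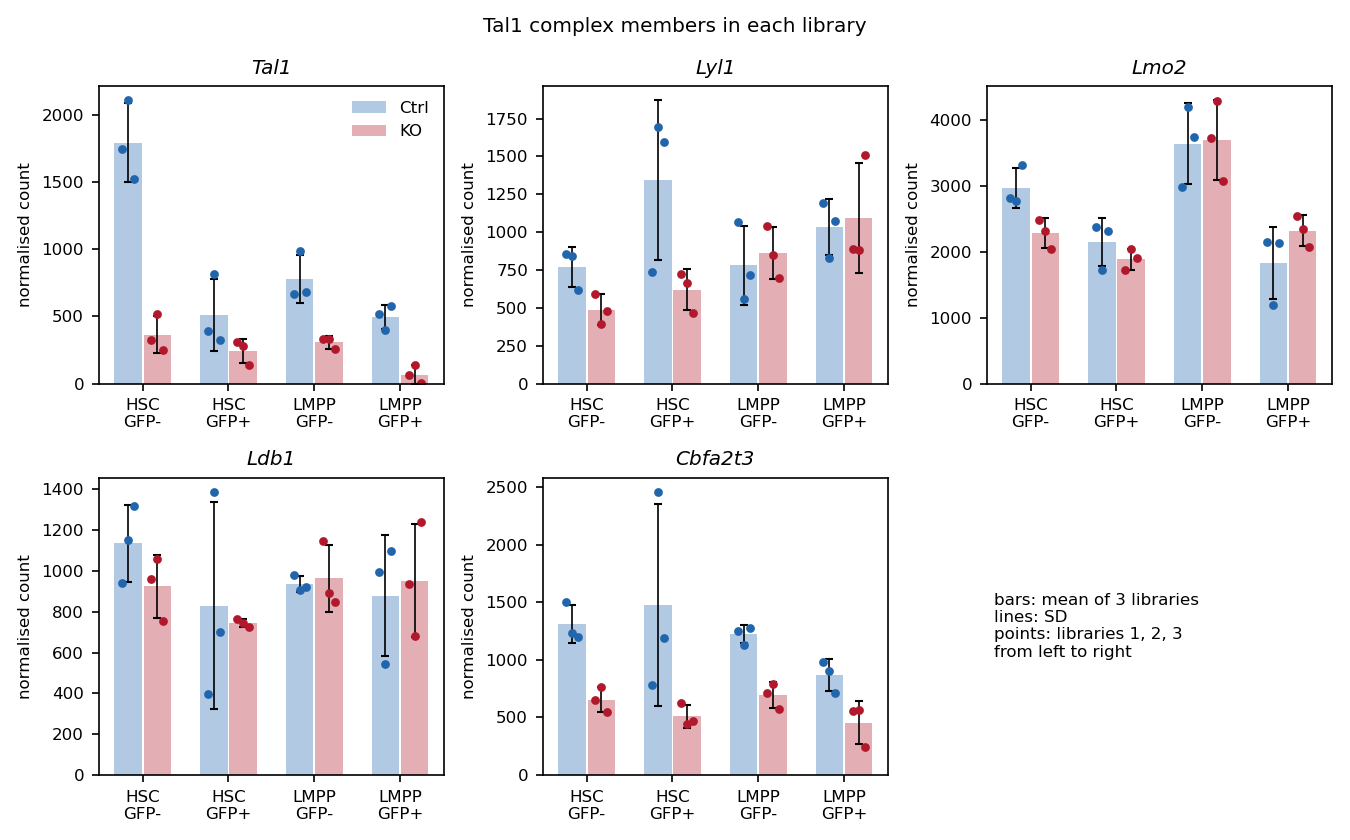
Normalised counts of Tal1, Lyl1, Lmo2, Ldb1 and Cbfa2t3 (vertical axes) in control (blue) and KO (red) libraries of 4 sorted populations (horizontal axes), where bars are means of 3 libraries, lines are SDs and points are single libraries. Tal1 and Cbfa2t3 are lower in all KO libraries than in all control libraries of each population, and Ldb1 overlaps in all 4.

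Among control cells, Tal1 was 3.75-fold lower in GFP-positive than in GFP-negative HSC (log2 difference -1.91, 95% interval -3.35 to -0.46, adjusted p = 0.149) and 2.31-fold lower in LMPP than in HSC among GFP-negative cells (log2 difference -1.21, -2.65 to 0.23, adjusted p = 1). The libraries did not overlap in either comparison, as was so in the same direction for 12.1% and 7.11% of all genes. Neither passed, where 2.72% and 0.37% of genes did. In KO mice, Tal1 fell by 3.13 on the log2 scale between GFP-negative and GFP-positive LMPP (adjusted p = 0.0222), where 1.15% of genes passed. Without KO LMPP GFP-positive replicate 3, the library with 0.499, the difference was -1.67 and no longer passed (adjusted p = 0.0829). The call was also lost without KO LMPP GFP-negative replicate 1 (0.0932) or 2 (0.106), and it was kept in 12 of 17 alternatives. The KO difference itself was not shown to vary with population or GFP: the 4 interaction terms of Tal1 had adjusted p of 0.294 to 1. Of all genes, 0% passed the terms for population in GFP-negative cells and for GFP in LMPP (384 and 531 genes at an unadjusted p under 0.05 by limma), 0.0308% that for population in GFP-positive cells and 0.00617% that for GFP in HSC.

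Lyl1 (ENSMUSG00000034041, chr8:84701457-84704715, plus strand) was not higher after the loss of Tal1 in any population beyond the spread of the libraries. In both HSC populations its KO mean was lower, and neither difference passed. In HSC GFP-negative cells, Lyl1 was at 853, 840 and 620 in control and 593, 392 and 477 in KO libraries. In HSC GFP-positive cells it was at 736, 1698 and 1597 in control and 722, 667 and 465 in KO libraries. All KO libraries lay below all control libraries in both, as did those of 6.03% and 4.95% of all genes. In LMPP GFP-negative cells Lyl1 was at 1069, 557 and 714 in control and 1038, 847 and 694 in KO libraries. In LMPP GFP-positive cells it was at 1190, 831 and 1076 in control and 886, 880 and 1510 in KO libraries. The LMPP libraries of both genotypes overlapped.

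The log2 difference of Lyl1 between KO and control was -0.66 (95% interval -1.34 to 0.02, limma adjusted p = 1) in HSC GFP-negative, -1.05 (-1.73 to -0.36, adjusted p = 0.143) in HSC GFP-positive, 0.17 (-0.51 to 0.86, adjusted p = 1) in LMPP GFP-negative and 0.05 (-0.63 to 0.73, adjusted p = 0.986) in LMPP GFP-positive cells. None passed. The intervals allow a rise of Lyl1 of at most 1.01-fold in HSC GFP-negative, 1.81-fold in LMPP GFP-negative and 1.66-fold in LMPP GFP-positive cells, and that for HSC GFP-positive cells lies wholly below no change. The mean over the 4 populations was -0.37 (-0.71 to -0.03, limma adjusted p = 0.591), and it was negative under all 34 alternatives, of which none passed. In HSC GFP-positive cells the median of all genes was 0.19, so that Lyl1 stood at -1.24 relative to it. Without control replicate 1 of that population the difference of Lyl1 was -1.43 and passed (adjusted p = 0.0288), and with libraries rescaled to equal totals it was -0.62 (0.269). The small differences in LMPP changed sign under some alternatives, which ran from -0.04 to 0.43 in GFP-negative and from -0.22 to 0.24 in GFP-positive cells.

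**Figure D2:**
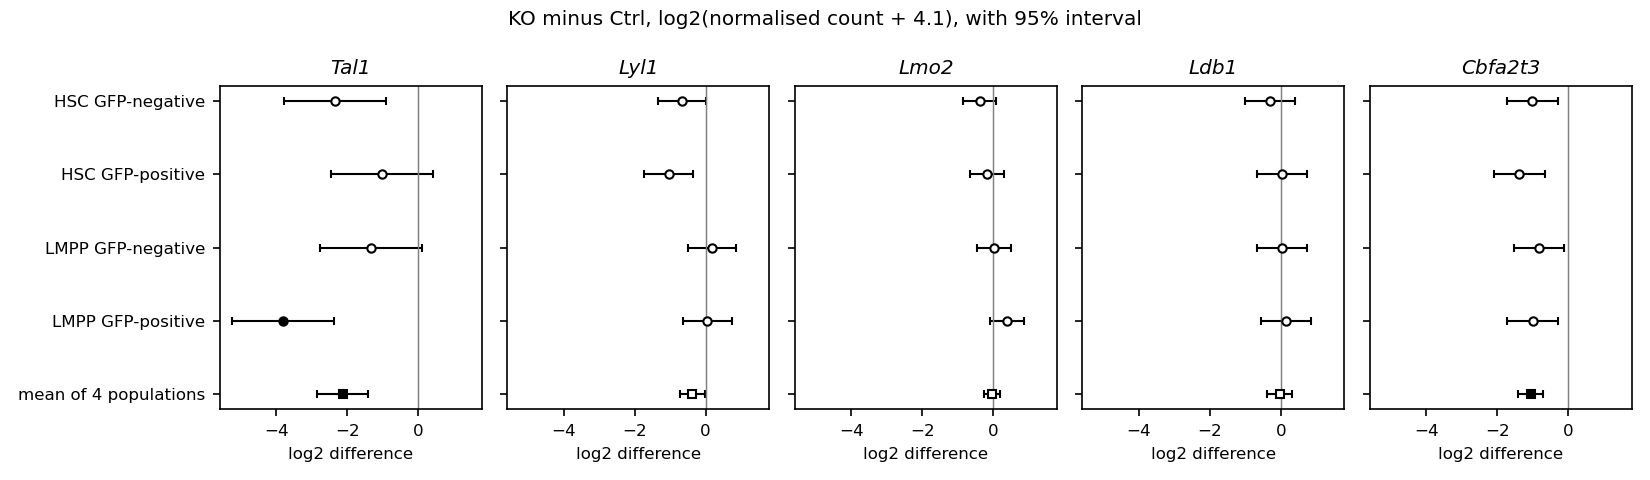
Log2 difference between KO and control (horizontal axis) for each of the 5 genes in the 4 populations and as their mean (vertical axis), with 95% intervals, where filled symbols mark an adjusted p under 0.05. The mean is filled for Tal1 (-2.12) and Cbfa2t3 (-1.05), and it lies at -0.03 for Lmo2 and Ldb1.

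In KO mice Lyl1 stood higher in LMPP than in HSC, with a log2 difference of 0.81 (95% interval 0.13 to 1.5, adjusted p = 0.411) among GFP-negative and 0.79 (0.11 to 1.48, adjusted p = 0.369) among GFP-positive cells. All LMPP libraries were above all HSC libraries in both, as were those of 11.2% and 6.95% of all genes. Neither passed, where 0.876% and 0.611% of genes did. In control mice the same differences were -0.02 and -0.30, with overlapping libraries. The term for a KO difference that itself differs between LMPP and HSC was 0.84 (-0.13 to 1.8, limma adjusted p = 1) among GFP-negative and 1.10 (0.13 to 2.06, adjusted p = 0.346) among GFP-positive cells, and neither passed.

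Tal1 and Lyl1 can be set on one scale as normalised counts per kb of exon (4379 bases of exon for Tal1 and 1800 for Lyl1). In control HSC GFP-negative cells the level of each was alike, 409 ± 67.6 per kb for Tal1 and 428 ± 72.9 for Lyl1 (SD, n = 3). In the other control groups Lyl1 was the more abundant, making up 85.9% ± 5.53 of their sum in HSC GFP-positive, 69.8% ± 11 in LMPP GFP-negative and 83.5% ± 1.42 in LMPP GFP-positive cells (SD, n = 3 each). In KO cells Lyl1 made up 76.2% ± 9.89 of the sum in HSC GFP-negative, against 51.1% ± 2.80 in control, 87.1% ± 1.24 in LMPP GFP-negative and 97.1% ± 2.99 in LMPP GFP-positive cells (SD, n = 3 each). The KO share in HSC GFP-positive cells, 86.4% ± 2.20 (SD, n = 3), was within the spread of control. The level of Lyl1 itself was not called different in any of these populations.

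The sum of both genes per kb was 838 ± 132 in control and 354 ± 43.0 in KO HSC GFP-negative cells (SD, n = 3 each). It was 863 ± 327 against 399 ± 95.7 in HSC GFP-positive cells (SD, n = 3 each). No KO sum reached a control sum in either HSC population. Single genes had all KO libraries below control in 6.03% and 4.95% of cases there, and no such share was computed for sums. The sum includes the deleted gene, so a fall of Tal1 lowers it by itself. Remaining Tal1 reads were divided by the full exon length, although some may come from exons outside the deleted part. In LMPP the sums overlapped, at 611 ± 118 in control and 548 ± 104 in KO GFP-negative cells, and at 687 ± 119 and 622 ± 188 in GFP-positive cells (SD, n = 3 each).

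**Figure D3:**
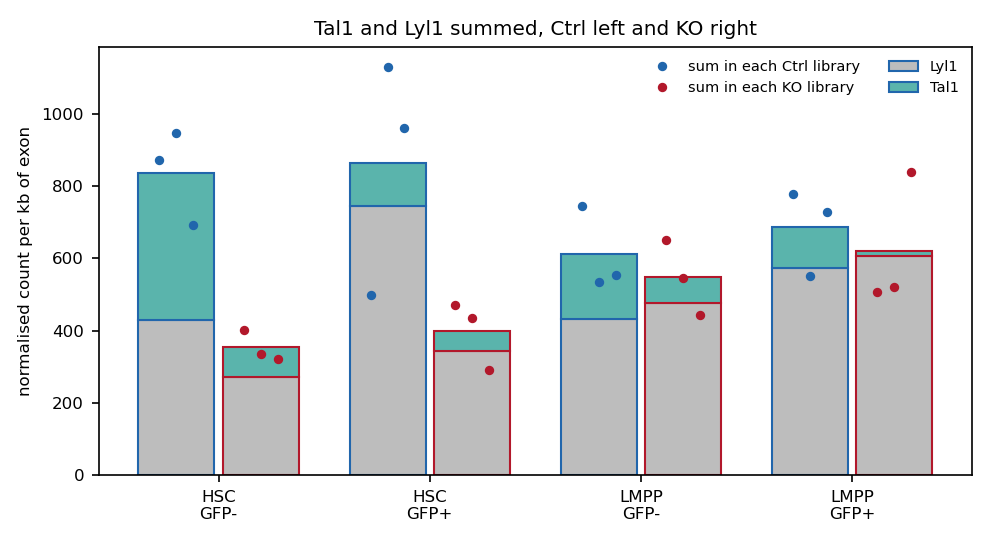
Normalised counts per kb of exon (vertical axis) of Lyl1 (grey) and Tal1 (green), stacked as means of 3 libraries for control (left bar) and KO (right bar) in each population, with the sum in each library as points. In both HSC populations the KO sums, which include the deleted gene, lie below all control sums, and in LMPP they overlap.

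Lmo2 (ENSMUSG00000032698, chr2:103957986-103981878, plus strand), the LIM-only bridge, had the highest level per kb of the 5 genes in 23 of 24 libraries. Its mean was 2967 ± 305 in control and 2275 ± 226 in KO HSC GFP-negative cells, 2137 ± 364 and 1885 ± 159 in HSC GFP-positive, 3634 ± 617 and 3688 ± 605 in LMPP GFP-negative, and 1822 ± 546 and 2314 ± 233 in LMPP GFP-positive cells (normalised counts, SD, n = 3 each). All KO libraries were below all control libraries in HSC GFP-negative cells (log2 difference -0.38, 95% interval -0.85 to 0.09, adjusted p = 1), as were those of 6.03% of all genes. KO and control libraries of Lmo2 overlapped in the other populations. The mean over the 4 populations was -0.03, with an interval of -0.27 to 0.20. That bounds a rise of Lmo2 in this mean at 1.15-fold and a fall at 0.829 of the control level. Single populations are bounded less tightly. In LMPP GFP-positive cells the log2 difference was 0.39 (-0.08 to 0.86, limma adjusted p = 0.639), which allows a rise of up to 1.82-fold.

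Mean Lmo2 was lower in GFP-positive than in GFP-negative cells in all 4 comparisons, by log2 differences of -0.48 in control HSC (adjusted p = 0.271), -1.03 in control LMPP (0.0821), -0.27 in KO HSC (0.999) and -0.66 in KO LMPP (0.168). The libraries did not overlap in 3 of these, all but KO HSC, against 12.1%, 8.23% and 11% of all genes in the same direction. None passed, where 2.72%, 0.0555%, 0.376% and 1.15% of genes did in the 4 comparisons. The genes whose log2 values followed Lmo2 most closely over the 24 libraries were Hlf (Pearson r = 0.83), Glul (0.82), Procr (0.80), Maged1 (0.79) and Lonrf3 (0.79), of 9746 genes ranked. Hlf is a transcription factor and Procr a surface receptor used to mark stem cells. The 24 libraries differ in genotype, sort gate and detection, and what these add to r was not tested.

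Ldb1 (ENSMUSG00000025223, chr19:46031570-46045214, minus strand), which joins the complexes, had the narrowest range of group means among the 5 genes. Its group means lay between 743 ± 20.4 in KO HSC GFP-positive and 1136 ± 190 in control HSC GFP-negative cells (normalised counts, SD, n = 3 each), a ratio of 1.53, and KO and control libraries overlapped in all 4 populations. The log2 differences ran from -0.30 (95% interval -1.0 to 0.41) in HSC GFP-negative to 0.14 (-0.57 to 0.84) in LMPP GFP-positive cells, and their mean was -0.03 (-0.38 to 0.33, adjusted p = 0.985). No neighbouring pair in the order of the 8 groups was apart in its libraries. The sign of the small differences of Ldb1 and Lmo2 turned under some alternatives, and none of them was called. Ldb1 shares 177 bases of exon (3.84%) with Pprc1 on the opposite strand, and whether the counting used strand is not stated.

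Cbfa2t3 (ENSMUSG00000006362, chr8:122625141-122699109, minus strand), the corepressor gene, was the partner that fell in KO mice. In HSC GFP-negative cells Cbfa2t3 was at 1505, 1234 and 1202 in control and 651, 764 and 545 in KO libraries. In HSC GFP-positive cells it was at 778, 2462 and 1187 in control and 625, 440 and 465 in KO libraries. No KO library reached a control library in either, although control replicate 2 of the GFP-positive cells, the control library of low detection, stood far above the other values. In LMPP GFP-negative cells Cbfa2t3 was at 1252, 1133 and 1280 in control and 713, 795 and 570 in KO libraries. In LMPP GFP-positive cells it was at 983, 903 and 713 in control and 561, 562 and 244 in KO libraries. The groups stood apart in these populations too.

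Over the mean of the 4 populations, Cbfa2t3 fell by 1.05 on the log2 scale (95% interval -1.41 to -0.70, limma adjusted p = 0.00204, 16th smallest p), from a mean of 1219 to 578 normalised counts, a 2.08-fold decrease. It passed under all 34 alternatives, with adjusted p of 2.86e-05 to 0.00648, and the 2 libraries of low detection were not needed for it. On the means of 3 against 3 description numbers, the exact permutation test of Cbfa2t3 gave p = 0.1, the smallest it allows. Taken alone, the differences were -1.01 in HSC GFP-negative (adjusted p = 0.768), -1.38 in HSC GFP-positive (0.0682), -0.83 in LMPP GFP-negative (1) and -1.01 in LMPP GFP-positive cells (0.626). None of these passed, and the 4 interaction terms of Cbfa2t3 lay between -0.37 and 0.37 with adjusted p of 0.771 or more.

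KO libraries lay below control libraries in each of the 4 populations for 6 of 16215 genes (0.037%), and Tal1 and Cbfa2t3 were among them. The others, named after their values were seen, were 1700025G04Rik, Il17rc, Map3k1 and Rnf150. The opposite, KO above control in all 4 populations, was found for 8 genes (0.0493%). Over the 24 libraries the log2 values of Cbfa2t3 and Tal1 had a Pearson r of 0.82, and r was 0.81 over the 22 libraries without those of low detection. It was 0.43 within the 12 control libraries and 0.87 within the 12 KO libraries. The KO libraries include the one of low detection, which had the lowest values of both Tal1 (0.499) and Cbfa2t3 (244). The r within KO was not computed without it, and the r over the 22 libraries includes the difference between genotypes. Tal1 was the third most like Cbfa2t3 of 9746 genes ranked, after Vps13c (0.83) and Pacs1 (0.82) and before Tmcc1 and Rsl1 (0.79 each). In the other direction, Cbfa2t3 was in place 13 among the genes most like Tal1, of 10741 genes with clone and predicted genes included. The genes most like Tal1 were Eya2, Ski, Ankrd50, R3hdm4 and Arhgap31 (r = 0.82 to 0.84). Over the 22 libraries those genes had r of 0.56 to 0.70 with Tal1, and Vps13c and Pacs1 had 0.62 and 0.63 with Cbfa2t3. The libraries differ in genotype, gate and library total, and the part of these in r was not tested. The other pairs of the 5 genes had r between -0.20 (Tal1 and Lyl1) and 0.31 (Lmo2 and Ldb1). These depended on the libraries taken: Tal1 and Lyl1 had r of -0.38 within control, -0.67 within KO and 0.03 over the 22 libraries. Over those 22, Tal1 and Ldb1 had 0.41 and Lmo2 and Ldb1 had 0.50.

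**Figure D4:**
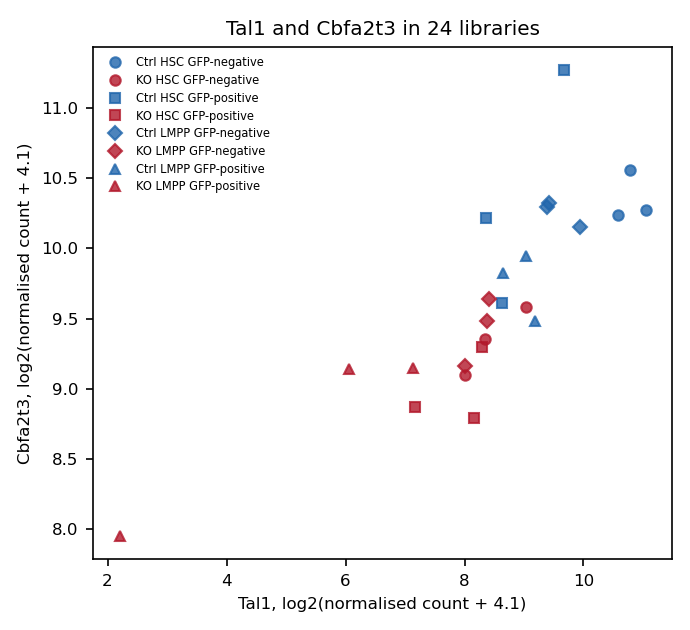
Log2(normalised count + 4.1) of Cbfa2t3 (vertical axis) against that of Tal1 (horizontal axis) in 24 libraries, with control in blue, KO in red and 1 symbol per population. The KO libraries lie lower on both axes, and the point at the far left is KO LMPP GFP-positive replicate 3.

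These genes encode parts of a complex that binds E-boxes and GATA sites. The 250 bases upstream of annotated starts are therefore shown for Cbfa2t3, which fell, for Tal1, the deleted gene, and for Lyl1, which did not pass. Sequences are from RefSeq on build GRCm38.p6, and capitals mark matches to CANNTG (which reads the same on both strands, and of which CAGCTG is 1 form) and to GATAA on either strand, written TTATC where it lies on the other strand.
Cbfa2t3 chr8:122699110-122699359 (minus strand): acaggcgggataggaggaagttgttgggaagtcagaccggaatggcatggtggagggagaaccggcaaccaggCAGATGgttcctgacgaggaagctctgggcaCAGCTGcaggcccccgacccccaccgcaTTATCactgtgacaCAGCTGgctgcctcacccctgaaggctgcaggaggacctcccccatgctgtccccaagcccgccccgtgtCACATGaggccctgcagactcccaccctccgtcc
Tal1 chr4:115056176-115056425 (plus strand): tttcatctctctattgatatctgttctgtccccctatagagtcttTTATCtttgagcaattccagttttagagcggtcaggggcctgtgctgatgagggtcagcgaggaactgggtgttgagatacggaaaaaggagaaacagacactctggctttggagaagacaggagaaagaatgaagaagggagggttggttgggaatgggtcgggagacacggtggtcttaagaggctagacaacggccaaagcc
Lyl1 chr8:84701207-84701456 (plus strand): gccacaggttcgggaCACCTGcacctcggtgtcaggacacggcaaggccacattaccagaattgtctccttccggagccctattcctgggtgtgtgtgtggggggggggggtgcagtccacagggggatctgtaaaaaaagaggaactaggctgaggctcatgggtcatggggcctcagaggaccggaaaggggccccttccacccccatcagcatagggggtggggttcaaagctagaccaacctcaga
The window of Cbfa2t3 held 4 matches to CANNTG, 2 of them CAGCTG, and 1 to GATAA. The window of Tal1 held 1 match to GATAA and 0 to CANNTG, its window at a second start held neither, and that of Lyl1 held 1 match to CANNTG and 0 to GATAA. Of 32851 windows of 250 bases upstream of mouse genes, 66.2% held CANNTG, 13% held CAGCTG and 22.6% held GATAA. The other window of Cbfa2t3, at a second start (chr8:122678176-122678425), held 1 CANNTG and 0 GATAA. Ldb1, which did not pass either, had a window (chr19:46037071-46037320) with 1 CANNTG and 2 GATAA, more GATAA than any window shown. The windows at its other starts held neither. Windows were available for 4 of the 5 genes, and Lmo2 had none. Tal1 is the deleted gene, so its fall says nothing about its windows. That leaves Cbfa2t3 to set against Lyl1 and Ldb1, too few genes to tell whether matches go with a fall. A match is a string of letters, and binding was not measured.

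Other genes of the complex were tested from lists chosen with results of these data known. The heptad is a set of 7 factors that bind together in blood progenitors, and the 4 of its genes outside the 5 described are Gata2, Runx1, Erg and Fli1. Of these, 0 rose and 0 fell in any KO comparison by limma, and their median log2 difference over the mean of the 4 populations was 0.12 against 0.03 for all genes. Runx1 was at 2728 normalised counts in KO and 2652 in control cells as means of the 4 populations, and Fli1 at 1072 and 1027. Gata2, a stem and progenitor factor, had KO libraries above all control libraries in HSC GFP-negative, HSC GFP-positive and LMPP GFP-negative cells, as did 6.66%, 9.36% and 5.38% of all genes, and did not pass. In HSC GFP-positive cells Gata2 was at 238, 0.0324 and 279 in control and 1302, 1509 and 837 in KO libraries (log2 difference 4.17, adjusted p = 0.097), and the value of 0.0324 is from the library of low detection. The difference of Gata2 in that population was 2.18 without the libraries of low detection, where it passed (adjusted p = 0.00524).

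Of the E proteins, the bHLH partners of TAL1, and their Id inhibitors, 4 of 7 listed genes were in the table (Tcf3, Tcf4, Tcf12 and Id2), and 0 passed in any KO comparison. Tcf3, which encodes the E2A proteins, was at 828 in KO and 891 in control cells over the 4 populations (log2 difference -0.11, 95% interval -0.47 to 0.25). Of the relatives of LMO2 and LDB1 and of the SSBP cofactors of LDB1, 6 of 8 were tested and 0 passed, with a median of 0.01. Of 11 corepressor genes, among them Cbfa2t2, a relative of Cbfa2t3, 10 were tested and 0 passed. Cbfa2t2 had a log2 difference of -0.10 over the 4 populations, and that of Kdm1a, a histone demethylase, was -0.03. All 3 coactivator genes were tested and 0 passed. At an unadjusted p under 0.05 over the 4 populations by limma there were 1 of 4 heptad partners, 1 of 4 E and Id genes, 0 of 6 relatives of LMO2 and LDB1, 0 of 10 corepressors and 0 of 3 coactivators. Tal2, Nhlh1 and Nhlh2, further bHLH relatives of Tal1, and Id1, Id3, Id4, Lmo3 and Ldb2 were not found by symbol in the table. Whether they rose or fell could not be tested.

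Of 4 genes of GATA factors and cofactors, 1 rose: Zfpm1, which encodes the GATA cofactor FOG1, rose in HSC GFP-positive cells from 11.7, 7.58 and 81.6 to 99.5, 170 and 191 normalised counts (log2 difference 2.60, limma adjusted p = 0.0371), where 0.432% of genes passed. It passed in 7 of 17 alternatives. Over the mean of the 4 populations, 3 of the 4 genes of this list had an unadjusted p under 0.05 by limma. Gata2 is in this list and among the heptad partners.

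Of 14 red cell genes known as targets of the complex, all were tested, and 8 rose and 0 fell over the mean of the 4 populations: Hbb-bs, Hba-a1, Hba-a2, Hbb-bt, Slc4a1, Alas2, Epb42 and Hemgn. Their list had a median log2 difference of 1.74, against 0.03 for all genes. In single populations 3 rose in HSC GFP-negative, 4 in HSC GFP-positive, 2 in LMPP GFP-negative and 5 in LMPP GFP-positive cells, and 0 fell. Of all genes, 0.469% passed over the mean of the 4 populations, and 0.16%, 0.432%, 0.0555% and 0.0432% in the single populations in that order. With single libraries left out, the counts of the list ran from 6 to 9 for the mean, from 0 to 3 in HSC GFP-negative, 0 to 6 in HSC GFP-positive and 0 to 5 in LMPP GFP-positive cells, and they were 0 each time in LMPP GFP-negative cells. Hbb-bs, an adult beta globin gene, was at 37.3, 52.3 and 128 in control and 1519, 1708 and 1113 in KO HSC GFP-negative libraries. Its log2 difference over the 4 populations was 4.85 (95% interval 3.98 to 5.72, adjusted p = 2.22e-07). Slc4a1, the anion exchanger of the red cell membrane, rose by 4.32 (3.46 to 5.19, adjusted p = 8.37e-07). Over the mean of the 4 populations, the globin genes, Slc4a1, Alas2 and Hemgn, made in red cells, thus rose and Tal1 and Cbfa2t3 fell. Bulk libraries cannot show whether the same cells carried both differences. Hemgn passed in 16 of 34 alternatives and Epb42 in 31, and the others in all 34. Reads of the near-identical pairs Hba-a1 and Hba-a2, and Hbb-bs and Hbb-bt, can be shared between the copies, so single values of these genes are uncertain. Klf1, a red cell transcription factor, was not called (log2 difference 0.23, adjusted p = 0.934).

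Markers of other cell types moved with genotype in the same libraries. The summed level of 9 red cell markers was 2682 to 5204 in KO and 1263 to 2697 in control HSC GFP-negative cells, 610 to 1412 and 0.284 to 230 in HSC GFP-positive, 1846 to 2520 and 181 to 461 in LMPP GFP-negative, and 866 to 6828 and 92.8 to 271 in LMPP GFP-positive cells. That of 7 of 8 mast cell markers was 1954 to 9719 in KO and 214 to 477 in control HSC GFP-negative, 1455 to 2790 and 478 to 1796 in HSC GFP-positive, 82.9 to 3163 and 6.25 to 19.9 in LMPP GFP-negative, and 3.49 to 104 and 17.0 to 23.9 in LMPP GFP-positive cells. That of 8 granulocyte and monocyte markers was 4931 to 6280 in KO and 10862 to 27940 in control HSC GFP-negative, 15229 to 56411 and 56933 to 127452 in HSC GFP-positive, 1526 to 2272 and 4905 to 8608 in LMPP GFP-negative, and 2005 to 7974 and 4291 to 11546 in LMPP GFP-positive cells. The red cell sums were thus higher and the granulocyte sums lower in KO cells, apart from overlaps of the red cell sums in HSC GFP-negative and of the granulocyte sums in LMPP GFP-positive cells. Over the 4 populations 6 of 9 red cell markers (8 of the 9 are also among the 14 red cell genes above) and 4 of 7 mast cell markers rose, and 2 of 8 granulocyte and monocyte markers fell, where 0.469% of all genes passed. Their part in the lower values of Tal1, Lyl1 and Cbfa2t3 was not tested. In HSC GFP-positive cells, the population in which Lyl1 was furthest below control, the granulocyte sum was the highest of all groups in control cells. In LMPP GFP-negative cells the granulocyte sum was also lower in KO libraries, and Lyl1 had a log2 difference of 0.17. A link between the granulocyte sums and Lyl1 was not tested. Of the megakaryocyte, T cell, B cell and endothelial lists, 7 of 8, 4 of 8, 3 of 7 and 4 of 7 genes were in the table. Over the 4 populations 0 megakaryocyte, 0 B cell and 0 endothelial genes passed by limma (2, 0 and 0 at an unadjusted p under 0.05) and 1 T cell gene fell. Among markers of the gates, 0 of 3 LSK and 0 of 7 HSC genes passed (0 and 1 at an unadjusted p under 0.05 by limma). Of 6 LMPP genes 1 fell, and 4 had an unadjusted p under 0.05. The summed level of the LMPP genes was 2111 to 3744 in KO and 4039 to 5495 in control HSC GFP-negative cells. It was 7844 to 9700 and 10395 to 19199 in HSC GFP-positive, and 8600 to 9828 and 12239 to 14690 in LMPP GFP-negative cells. In LMPP GFP-positive cells the sums overlapped.

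Of 7 genes that lie next to one of the 5, 1 rose over the mean of the 4 populations, where 0.469% of all genes passed. Pdzk1ip1, which encodes a small membrane protein and is the gene beside Tal1 on the side away from Stil, rose from a mean of 76.0 to 207 normalised counts (log2 difference 2.20, 95% interval 1.23 to 3.18, limma adjusted p = 0.0282). Its values in HSC GFP-negative cells were 156, 82.0 and 166 in control and 304, 513 and 255 in KO libraries. In LMPP GFP-negative cells they were 36.9, 58.9 and 28.0 in control and 193, 311 and 148 in KO libraries. KO libraries lay above control libraries in these populations and in LMPP GFP-positive cells, and they overlapped in HSC GFP-positive cells. Of all genes, 6.66%, 5.38% and 4.3% had KO above control in HSC GFP-negative, LMPP GFP-negative and LMPP GFP-positive cells. The rise passed in 22 of 34 alternatives. Stil, the neighbour on the other side of Tal1, did not move with genotype beyond its spread (log2 difference 0.02, -0.51 to 0.54). Nfix, beside Lyl1, had a log2 difference of -0.23 (-0.53 to 0.08).

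**Figure D5:**
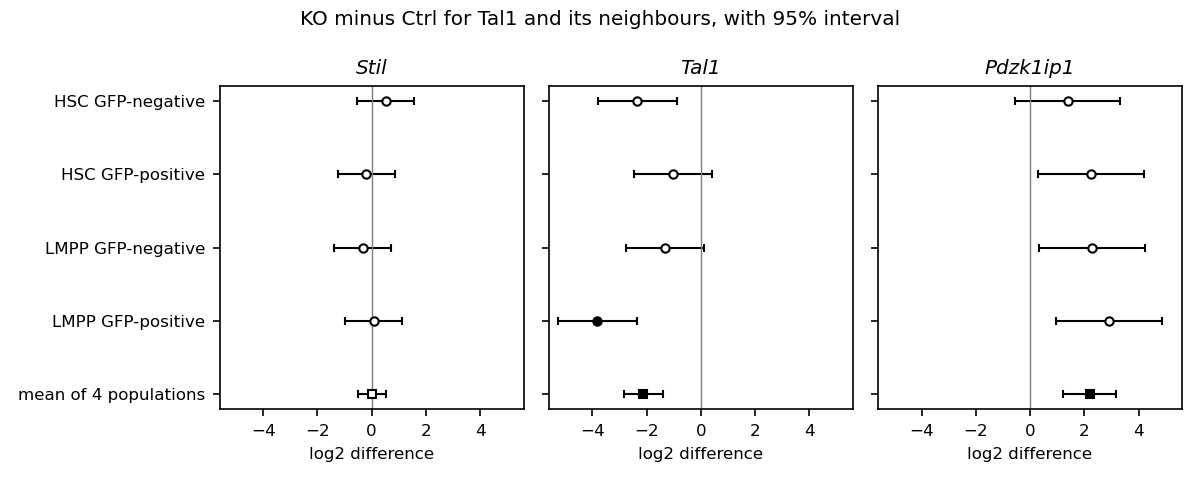
Log2 difference between KO and control (horizontal axis) for Tal1 and the genes on either side of it, Stil and Pdzk1ip1, in the 4 populations and as their mean (vertical axis), with 95% intervals and filled symbols for an adjusted p under 0.05. The mean is -2.12 for Tal1, 2.20 for Pdzk1ip1 and 0.02 for Stil.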

How the data were processed

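RNA was sequenced by the authors from 24 sorted mouse samples. The submitters' processing notes name Trimmomatic 0.33, HTSeq 0.6.1, edgeR and the build mm10 (GRCm38), and no aligner is named in the sources used here. The authors deposited normalised counts per gene, a signal that is no longer whole (0.594% of values above 0 lie within 0.001 of a whole number), so no count model was used. The depth in reads is unknown.

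Ensembl identifiers were matched to symbols through GENCODE M21 (16978 of 17149). Genes with at least 1 ppm of the library total in at least 3 libraries were tested with limma 3.58.1 (R 4.3.3, empirical Bayes with trend, 16 residual and 9.53 prior degrees of freedom). The pseudocount was 0.5 ppm of the mean library total, or 4.10 normalised counts, and fold changes of low genes are understated on this scale. All 24 libraries and 8 group means entered 1 fit with 17 comparisons, tested on simulated data first. Single genes were also tested by the exact two-sided permutation test (scipy 1.17.1).

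The genes and lists were chosen with earlier results of these data known. Named were the 5 genes, all listed genes that passed in a comparison of genotypes, otherwise up to 4 of a list by level, and for likeness the 5 genes of highest Pearson r with a mean of at least 5 ppm. The lists covered heptad partners, E and Id proteins, relatives of LMO2 and LDB1, GATA factors, corepressors, coactivators, bHLH relatives, red cell targets, neighbouring genes, and markers of the LSK, HSC and LMPP gates and of red, megakaryocyte, mast, granulocyte, B, T and endothelial cells. Alternatives were other pseudocounts, no filter, other scalings, library weights, libraries left out, other lengths and blocks. Aligned sequences were compared with Biopython 1.88. The labels' description numbers tie 4 libraries of 1 genotype and replicate together, 6 numbers in all, without saying what they stand for. One listed marker of the HSC gate is not reported here, and the values of that list are over the other genes.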

Additional observations from a re-analysis of the deposited data

How the results depend on the processing

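The calls for Tal1 and Cbfa2t3 over the mean of the 4 populations were kept in all 34 alternatives (-2.37 to -1.66 and -1.15 to -0.84), and no difference of the 5 genes that had been called changed sign. In single populations more depended on the setting, and the cause was not tested. Tal1 in HSC GFP-negative cells passed with quantile normalisation (-2.39, adjusted p = 0.00784), without the 2 libraries of low detection (-2.34, 0.000362), with library weights (-2.43, 3.15e-05) and with only the libraries compared (-2.34, 0.0154). Tal1 in LMPP GFP-positive cells no longer passed with a pseudocount of 0.1 ppm (-4.44, 0.17) or with only the libraries compared (-3.82, 0.866), and lay between -4.82 and -2.35 when single libraries were left out (adjusted p 0.00174 to 0.196). Any of control replicates 1, 2 and 3 or KO replicate 3 left out ended that call. Cbfa2t3 passed in HSC GFP-negative cells without the libraries of low detection (-1.01, 0.0333) and with weights (-1.08, 0.00164), and in HSC GFP-positive cells with median-of-ratios scaling (-1.56, 0.0416) and without the libraries of low detection (-0.93, 0.0451). With single libraries left out it lay between -1.75 and -0.93 in HSC GFP-positive cells, and it passed without control replicate 1 or 3. Lyl1 lay between -1.43 and -0.83 there.

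Counts of genes that passed moved most. In HSC GFP-negative cells 26 became 13 and 40 with pseudocounts of 0.1 and 2 ppm, 40 with quantile normalisation, 54 without the libraries of low detection, 174 with weights and 15 with only the libraries compared. In HSC GFP-positive cells 70 became 192 with equal totals, 310 without the libraries of low detection, 4 with weights and 0 by limma with only the libraries compared (1224 at an unadjusted p under 0.05). In LMPP GFP-negative cells 9 became 14 with quantile normalisation, 19 without the libraries of low detection, 44 with weights and 15 with the replicate block. In LMPP GFP-positive cells 7 became 0 by limma with only the libraries compared (366 at an unadjusted p under 0.05). Over the mean of the 4 populations 76 became 144 without the libraries of low detection, 182 with weights and 50 with the block by description number (correlation 0.0374). Leaving out single libraries gave 6 to 48, 8 to 706, 0 to 6, 0 to 6 and 46 to 100 genes in these 5 comparisons (at the count of 0, 349 genes in LMPP GFP-negative and 364 to 1247 in LMPP GFP-positive cells had an unadjusted p under 0.05). Samples of the same replicate number were at most weakly alike. Their deviations from the group means correlated at -0.03 to 0.20, with 0 to 2 of 3 pairs of a comparison above 0.1. Within a genotype such pairs share a description number, and whether they share a source is not stated. The replicate block changed no call of the 5 genes between genotypes. With only the libraries compared, the mean of the 4 populations is the fit of all libraries and was not run again. With the longest transcript in place of all exons, Ldb1 (295 per kb) stood above Lyl1 (271) in KO HSC GFP-negative cells, where it had stood below (201), and Lyl1 was in place 2 in 21 libraries in place of 20. Depth in reads is unknown, so no floor can be given for low values such as that of Tal1 in the KO library of low detection.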

Other observations

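The genes most like Lyl1 and Ldb1 across the 24 libraries were as follows. Lyl1 was most like Akna, a centrosomal protein gene (Pearson r = 0.84), followed by Lsp1 (0.75), Arhgdib (0.74), Plxnd1 (0.74) and Ppp1r18 (0.74), of 9746 genes ranked. Lsp1 and Arhgdib are expressed in white blood cells. Ldb1 was most like Lrp10 (0.86), Sall2 (0.75), Zfp58 (0.75), Pias3 (0.74) and Trpm2 (0.73). The values for Lyl1 and these genes over the 22 libraries without those of low detection were 0.62 to 0.76. Per kb of exon, Lyl1 held the second place among the 5 genes in 20 of 24 libraries and Tal1 the last in 13. With the longest transcript as the length these were 21 and 17 libraries.

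By description number, the mean log2 level of Cbfa2t3 over the 4 populations was 10.1, 10.4 and 10.1 in control and 9.32, 9.29 and 8.77 in KO mice. Those of Tal1 were 9.46, 9.83 and 9.39 in control and 7.77, 8.18 and 6.35 in KO mice. With 3 numbers a genotype, the exact permutation test gave p = 0.1 for both genes and for Lyl1, the smallest it allows.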
